A study of Mus musculus with 8 samples.

Results

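The genes described here encode the TRAF, A20 and cIAP regulators, which sit between receptors of the TNF family and the NF-kB transcription factors. The list holds 10 genes, Tnfaip3, Tnip1, Tnip2, Traf1, Traf2, Traf3, Traf5, Traf6, Birc2 and Birc3, and they were taken by name from the array annotation. A gene was measured if at least 1 probe set, a group of short probes read together, carried its symbol and no other. By this rule 9 of the 10 genes had 17 probe sets among 18193 named genes, and Traf3 had none and was not analysed here. The cells were germinal centre B cells of C57BL/6 mice, sorted from lymph nodes 12 days after subcutaneous immunization with the hapten-carrier NP-KLH in alum. All samples shared the gate B220+ CD38- CD95+. The 4 light zone samples and the 4 dark zone samples were hybridised to 1 Affymetrix array each, and are named biological replicates in the labels. Whether a sample was 1 mouse or a pool is not given in the sources used here, so the p-values measure the spread between these samples.

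When a receptor such as CD40 or the BAFF receptor is engaged, TRAF proteins bind its tail and bring in the ubiquitin ligases cIAP1 and cIAP2, encoded by Birc2 and Birc3. The ubiquitin chains built there are platforms for kinases that release NF-kB, whereas in resting B cells TRAF2, TRAF3 and the cIAPs together keep the kinase NIK at a low level. A20, encoded by Tnfaip3, edits and blocks such chains and so ends the signal, with the help of the adaptors ABIN-1 and ABIN-2, encoded by Tnip1 and Tnip2. In germinal centres, the light zone is where B cells meet antigen and CD40 ligand on helper T cells, and the dark zone is classically where they divide and mutate their antibody genes.

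The wording of the sort in the labels gives light zone cells as high in CXCR4 and dark zone cells as high in CD83, the reverse of the usual definition. In mRNA, Cd83 lay between 7158 and 7631 in arrays labelled light zone, against 1363 to 1624 in arrays labelled dark zone. Cxcr4 lay between 758 and 854 in light zone arrays, against 1418 to 1677 in dark zone arrays. Groups were taken from the sample titles, so each direction is between arrays titled light zone and dark zone. All values are intensities on a linear scale as normalized by the authors, and differences are log2 light zone minus dark zone. Of 6 measured germinal centre B cell markers, 3 were lower in the light zone, Gcsam (-1.48, limma adjusted p = 7.8e-09), Mybl1 (-0.76, limma adjusted p = 7.5e-05) and S1pr2 (-0.26, limma adjusted p = 0.013). The 6 summed to 16940 to 17938 in light zone arrays, against 20242 to 21062 in dark zone arrays, and their part in the differences of the regulators was not tested. Cd79a, Ms4a1 and Bcl6 did not pass. Ms4a1 had an intensity of 10287 to 10603 in light zone and 9750.3 to 10230.4 in dark zone arrays. Bcl6 had 3038 to 3240.0 in light zone and 3166 to 3764 in dark zone arrays. Of 10 T cell markers with a probe set, 6 were below the level of the filter, an intensity of 27.8, and 0 of the other 4 passed an adjusted p of 0.05 by limma. Before adjustment 1 did, Cd4, at -0.16 on the log2 scale (limma adjusted p = 0.070). The intensities of the 10 T cell markers summed to 249.5 to 262 in light zone and 247 to 256 in dark zone arrays.

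The region before the start site of 4 genes is shown first, because NF-kB is the factor that these regulators act on and it binds a known sequence. Each stretch is the 250 bases upstream of the start site, from RefSeq on GRCm38.p6, in the direction of the gene. Capitals mark matches, on either strand, to the NF-kB consensus of 10 bases or to the shorter pattern GGNNNTTCC, which can overlap it.
Tnfaip3 (chr10:19015411-19015660, minus strand): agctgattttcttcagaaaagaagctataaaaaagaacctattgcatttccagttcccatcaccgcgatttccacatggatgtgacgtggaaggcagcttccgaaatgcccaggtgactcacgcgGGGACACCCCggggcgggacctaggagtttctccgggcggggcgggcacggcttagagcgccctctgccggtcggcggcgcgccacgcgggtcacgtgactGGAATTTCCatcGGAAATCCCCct
Birc3 (chr9:7873171-7873420, minus strand): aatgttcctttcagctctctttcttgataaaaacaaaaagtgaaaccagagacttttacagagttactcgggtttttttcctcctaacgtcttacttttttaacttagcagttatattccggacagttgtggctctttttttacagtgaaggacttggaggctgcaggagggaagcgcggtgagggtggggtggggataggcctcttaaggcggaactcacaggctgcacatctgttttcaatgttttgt
Tnip1 (chr11:54962941-54963190, minus strand): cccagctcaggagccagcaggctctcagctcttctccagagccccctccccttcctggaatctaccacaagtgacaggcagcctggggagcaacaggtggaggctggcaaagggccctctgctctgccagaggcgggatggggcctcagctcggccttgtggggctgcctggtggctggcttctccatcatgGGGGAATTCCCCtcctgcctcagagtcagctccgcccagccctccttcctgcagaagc
Traf5 (chr1:192092600-192092849, minus strand): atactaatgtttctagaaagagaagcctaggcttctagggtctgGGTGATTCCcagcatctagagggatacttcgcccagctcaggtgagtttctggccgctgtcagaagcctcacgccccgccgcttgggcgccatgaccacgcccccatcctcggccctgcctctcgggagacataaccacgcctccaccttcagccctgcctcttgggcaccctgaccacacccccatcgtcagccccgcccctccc
The windows of Tnfaip3 and Tnip1 shown here hold the NF-kB consensus, which is found in 3.90% of 32851 windows of all genes. GGNNNTTCC is found in 15.7% of them. In Tnfaip3 the consensus lies 125 to 116 and 12 to 3 bases before the start site, and the shorter pattern lies at 24 to 16 as GGAATTTCC and inside the second consensus match. A second start site of Tnfaip3 has a window at chr10:19011964-19012213, not shown, with no consensus and with the shorter pattern as GGTTATTCC at 89 to 81. In Tnip1 the stretch GGGGAATTCCCC gives 3 overlapping consensus matches between 58 and 47 bases before the start site. Traf5 has the shorter pattern alone, GGTGATTCC. The Birc3 window has neither. Of the 12 windows of the 10 genes, 3 hold the consensus (Tnfaip3, Tnip1 and Traf3) and 6 windows of 5 genes hold the shorter pattern (Tnfaip3, Tnip1, Traf3, Traf5 and Birc2). A match is a description of letters, and no match says only that they are not in this window.

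Most of the measured regulators differed between the zones, and not all in the same direction. Tnfaip3, Birc3, Tnip2, Birc2 and Traf2 were higher in the light zone, Traf5 was lower, and Tnip1, Traf1 and Traf6 did not pass the test on their brightest probe set. The test was limma across 10547 genes, with a Benjamini-Hochberg adjusted p under 0.05 over all of them. Of the 9 genes, 5 were higher in the light zone, as were 24.8% of all tested genes, and 1 was lower, as were 19.1%. Taken in either direction, 43.9% of all tested genes passed, so a change between zones was common on these arrays. The 9 genes had a median difference of 0.30, against 0.01 over all tested genes. In these 6 genes the arrays of the zones did not overlap, with 5 entirely higher in the light zone (23.2% of all tested genes) and 1 entirely lower (18.1%), or 41.3% of all tested genes in either direction. RNA was taken from whole sorted populations, so more cells with a transcript and more transcript per cell cannot be told apart.

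**Figure D1:**
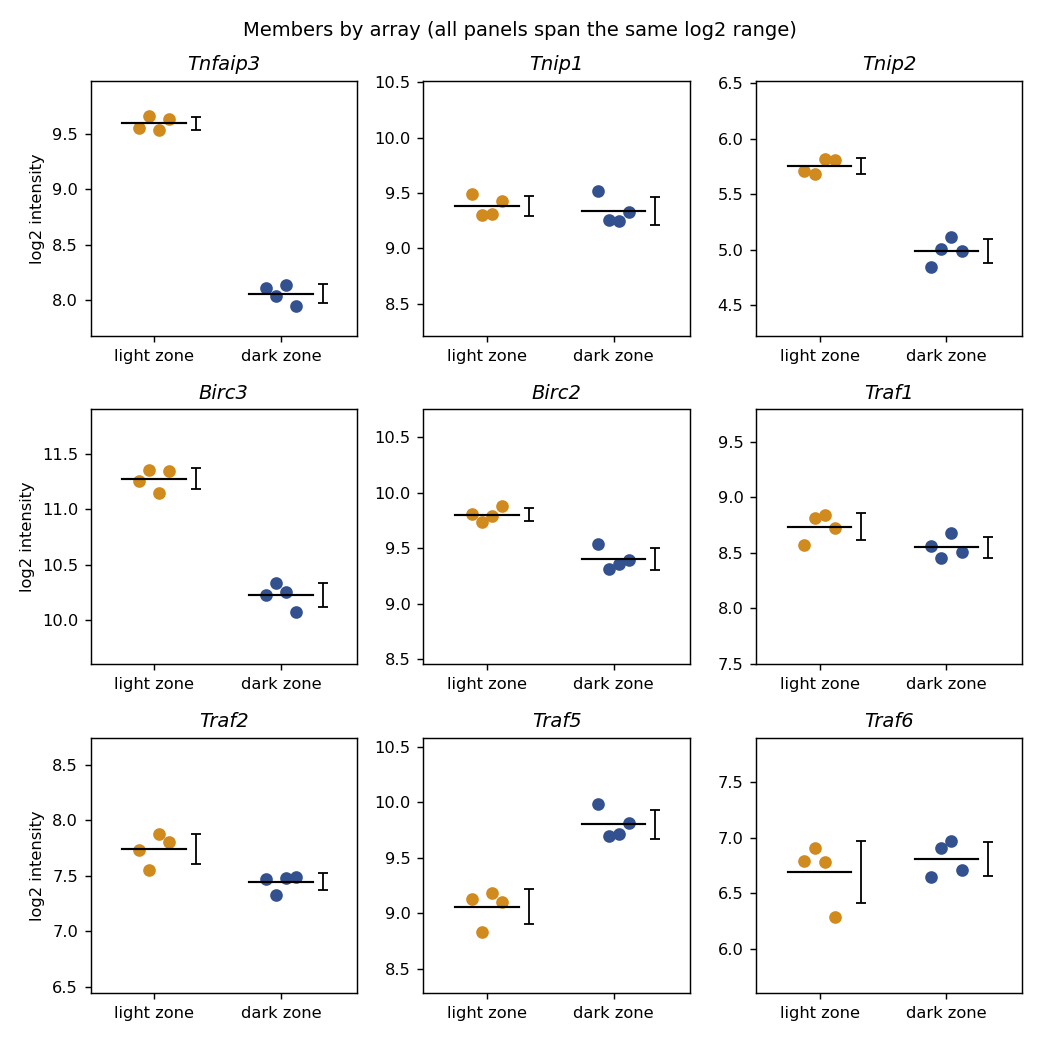
Log2 intensity of the 9 measured genes, with 1 point for each of the 4 light zone (left) and 4 dark zone (right) arrays, a line at the mean and a bar of 1 SD on either side. Tnfaip3, Birc3, Tnip2, Birc2 and Traf2 lie higher in every light zone array than in every dark zone array, Traf5 lies lower, and Tnip1, Traf1 and Traf6 overlap.

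Tnfaip3, the ubiquitin-editing enzyme A20, had the largest difference of the measured genes. Its intensity was 751, 810.3, 740.3 and 793 in light zone arrays 1 to 4, against 276, 263, 282 and 247 in dark zone arrays 1 to 4. Every light zone array was far above every dark zone array. The mean was 774 ± 33.5 in the light zone, against 267 ± 15.4 in the dark zone (SD, n = 4 each). This is a log2 difference of 1.53 (SE 0.06, limma adjusted p = 5.8e-09), or 2.90-fold with a 95% confidence interval of 2.63 to 3.19. It was number 73 from the highest end, the genes most above the dark zone, among the 10547 tested genes. Its other probe set was near the floor of the arrays, at 17.1 ± 0.5 in the light zone, against 15.9 ± 1.0 in the dark zone (SD, n = 4 each), with a difference of 0.10 (limma adjusted p = 0.33). The mean of both probe sets on the log2 scale gave 0.82 (limma adjusted p = 1.5e-07).

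The 5 tested genes whose values followed those of Tnfaip3 most closely over the 8 arrays were Grcc10, Fcer2a, Pkib, Hapln1 and Tanc2, with Pearson's r of 0.998 to 0.999. The arrays form 2 groups by zone, so this likeness is a description that rests mainly on the step between zones. The size of the step was not the same, at 0.59 in Grcc10 and 2.06 in Fcer2a on the log2 scale. Fcer2a, the low-affinity IgE receptor, is also on the list of naive B cell markers. In that list the 3 genes with a probe set summed to 2658 to 2932 in light zone and 654 to 724 in dark zone arrays, and both genes above the filter, Fcer2a and Klf2, were higher in the light zone. Their part in the differences of the regulators was not tested.

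The adaptors of A20 did not move alike. Tnip2 encodes ABIN-2, which binds A20 and also the kinase TPL2. It had 52.2, 51.3, 56.6 and 56.3 in light zone arrays, against 28.7, 32.1, 34.6 and 31.8 in dark zone arrays. All light zone values lay above all dark zone values, which were close to the level of the filter. The difference was 0.77 (SE 0.07, limma adjusted p = 3.3e-06), or 1.70-fold, with a 95% confidence interval of 1.53 to 1.89.

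Tnip1 encodes ABIN-1, a ubiquitin-binding partner of A20. It had 719.7, 631, 635 and 689.6 in light zone arrays, against 731, 609.7, 608.5 and 643 in dark zone arrays. The zones overlapped, and the highest single value was that of dark zone replicate 1. The difference was 0.05 (SE 0.08, limma adjusted p = 0.64), with a 95% confidence interval of -0.12 to 0.21 on the log2 scale.

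Birc3 and Birc2 are neighbouring paralogs on chromosome 9, and both encode cIAP ubiquitin ligases. Birc3 had 2443, 2617, 2266 and 2598 in light zone arrays, against 1199, 1289.8, 1221 and 1079 in dark zone arrays. The lowest light zone value was well above the highest dark zone value. The mean was 2481 ± 163 in the light zone, against 1197 ± 88.0 in the dark zone (SD, n = 4 each). The difference was 1.05 (SE 0.07, limma adjusted p = 3.4e-07), or 2.07-fold. The dimmer probe set of Birc3 gave 0.93 (SE 0.09, limma adjusted p = 4.2e-06), and its zones did not overlap either.

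Birc2 had 895, 853, 885 and 940.2 in light zone arrays, against 743, 635, 658 and 674 in dark zone arrays. The zones did not overlap, and the gap between them was smaller than for Birc3. The difference was 0.40 (SE 0.07, limma adjusted p = 3.7e-04), or 1.32-fold. Older names of these genes were used for either of them, and the symbols here are those of the array annotation.

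Traf1 encodes a TRAF protein without the RING domain that gives other members ubiquitin ligase activity, and it pairs with TRAF2. Its brightest probe set had 380.2, 449, 459.5 and 422 in light zone arrays, against 378, 351, 410.0 and 364 in dark zone arrays. Light zone replicate 1 lay within the range of the dark zone, and the difference of 0.19 did not pass (SE 0.08, limma adjusted p = 0.064). It passed without light zone replicate 1, at 0.24 (limma adjusted p = 0.021), without dark zone replicate 3, at 0.23 (limma adjusted p = 0.037), and with each array centred on its median, at 0.21 (limma adjusted p = 0.046). Its second probe set had 408, 549, 412 and 478 in light zone arrays, against 309.7, 321, 287 and 338 in dark zone arrays. There the zones did not overlap, and the difference was 0.55 (SE 0.09, limma adjusted p = 8.5e-04 over all 45037 probe sets). The mean of both probe sets gave 0.37 (limma adjusted p = 8.4e-04), so the call of Traf1 depended on the probe set.

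Traf2 encodes the adaptor that carries the cIAPs to receptors. Its intensity was 212, 188, 235 and 224 in light zone arrays, against 177, 161, 179 and 179.8 in dark zone arrays. The zones did not overlap, with light zone replicate 2 nearest to the dark zone. The difference was 0.30 (SE 0.08, limma adjusted p = 0.0074), or 1.23-fold.

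Traf5 was the measured member that was lower in the light zone. It encodes an adaptor that shares receptors such as CD40 with the other TRAFs. The intensity was 559, 454, 582 and 547 in light zone arrays, against 1013, 831, 837 and 898 in dark zone arrays. Every light zone array was below every dark zone array, with means of 536 ± 56.2 in the light zone, against 895 ± 84.5 in the dark zone (SD, n = 4 each). The difference was -0.74 (SE 0.09, limma adjusted p = 3.8e-05), or 1.67-fold higher in the dark zone. It was number 260 from the lowest end among the 10547 tested genes. The second Traf5 probe set was of a type that can detect related transcripts and lay near the floor, at 12.6 to 14.6 in light zone and 13.6 to 14.4 in dark zone arrays. Its difference was -0.04 (limma adjusted p = 0.72), and the mean of both gave -0.39 (limma adjusted p = 1.4e-04).

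Traf6 encodes the ligase used by CD40, Toll-like and interleukin-1 receptors, and none of its 5 probe sets passed. The brightest had 110.9, 120.3, 110.2 and 77.7 in light zone arrays, against 99.9, 119.8, 126 and 105 in dark zone arrays. Light zone replicate 4 was the lowest of the 8 arrays, and the zones overlapped. The difference was -0.12 (SE 0.13, limma adjusted p = 0.49), with a 95% confidence interval of -0.39 to 0.16. Without light zone replicate 4 it was 0.02 (limma adjusted p = 0.87). The other probe sets of Traf6 gave differences of -0.13 to -0.0024, and 3 of these 4 were below the filter. In 1 of the dim ones the zones did not overlap, at 17.0 to 18.6 in light zone and 19.0 to 20.4 in dark zone arrays, but its limma adjusted p was 0.18.

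**Figure D2:**
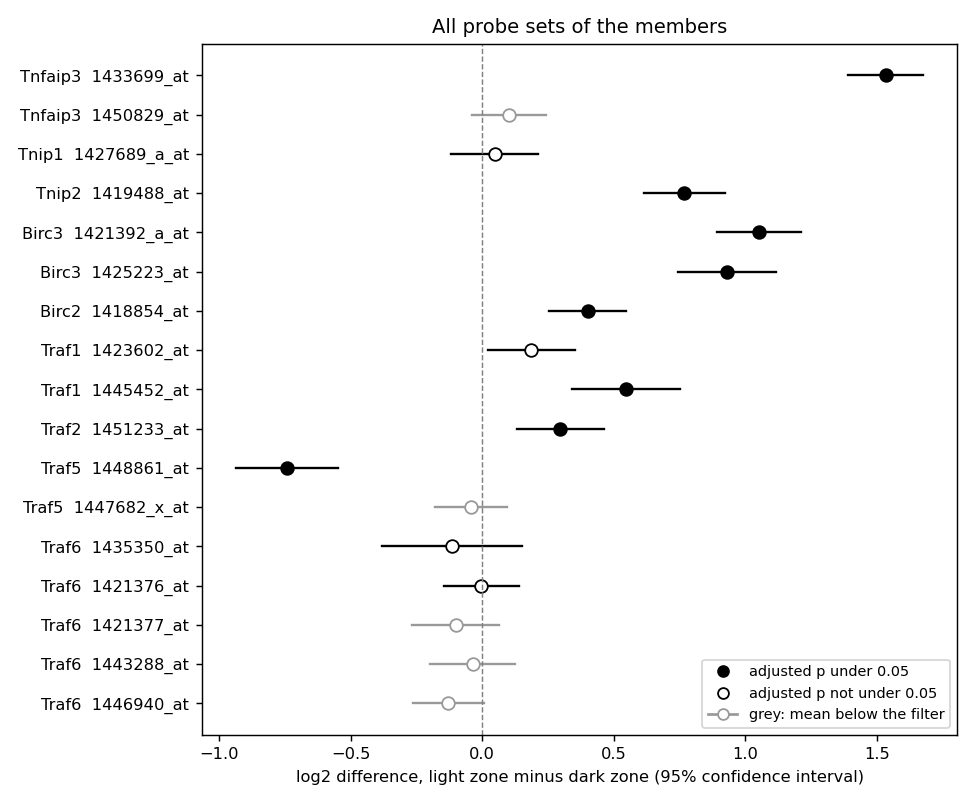
Log2 difference, light zone minus dark zone, of all 17 probe sets, with 95% confidence intervals from the fit of 45037 probe sets. Filled points have an adjusted p under 0.05, open points do not, and grey marks a mean below the filter. In Tnfaip3 and Traf5 the probe set near the floor lies by 0 while the bright one does not, and the 2 probe sets of Traf1 gave 0.19 and 0.55.

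Over all probe sets of the table, with no filter, 7 of the 17 were higher in the light zone, as were 11.3% of 45037 probe sets, and 1 was lower, as were 10.5% (21.8% in either direction). In 9 of the 17 the zones did not overlap, as in 23.9% of all probe sets. Of the 17, 9 did not pass, and 5 of these were below the filter. The 7 were the 5 that stand for the genes named above as higher, the second probe set of Birc3 and the second probe set of Traf1. The spread between arrays of a zone was small for most of the brightest probe sets, with an SD on the log2 scale of 0.06 in light zone and 0.08 in dark zone arrays for Tnfaip3. It was widest for Traf6, at 0.28 in light zone and 0.16 in dark zone arrays.

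Whether partners and paralogs changed by different amounts was tested on the ratio of their intensities within each array. The level of such a ratio depends on the probes and was not read, and only its difference between zones was compared. An exact permutation test over the 70 arrangements of the arrays was used, two-sided and adjusted over 4 pairs. The log2 ratio of Birc3 to Birc2 was 1.36 to 1.62 in light zone arrays, against 0.68 to 1.02 in dark zone arrays. It differed by 0.65 (exact p = 0.029, the smallest the design can give, adjusted p = 0.038). The ratio was higher in all 4 light zone arrays than in all 4 dark zone arrays. With 4 pairs, an adjusted p depends on how many of them reach that smallest exact p.

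The ratio of Tnfaip3 to Tnip1 was 0.06 to 0.36 in light zone arrays, against -1.41 to -1.11 in dark zone arrays. Its difference was 1.49 (exact p = 0.029, adjusted p = 0.038), or 0.77 with probe sets averaged. The ratio of Tnip1 to Tnip2 was 3.49 to 3.78 in light zone arrays, against 4.14 to 4.67 in dark zone arrays, a difference of -0.72 with the same p-values (exact p = 0.029, adjusted p = 0.038). Tnfaip3 and Tnip2 thus each differed from Tnip1 in the size of the zone difference. For Traf1 and Traf2 the ratios overlapped, at 0.84 to 1.26 in light zone and 1.02 to 1.196 in dark zone arrays. The difference was -0.11 (exact p = 0.31, adjusted p = 0.31), which does not show that they changed alike, and with averaged probe sets it was 0.07. The planned pairs of Traf3 with Traf2 and with Traf5 were not run, because Traf3 had no probe set of its own.

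**Figure D3:**
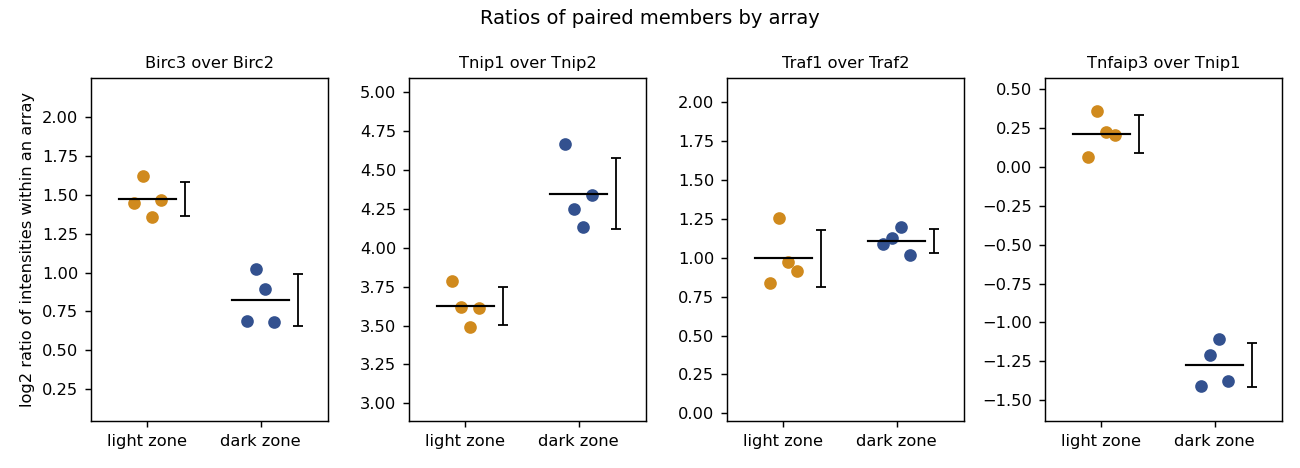
Log2 ratio of the intensities of paired genes within an array, for 4 light zone (left) and 4 dark zone (right) arrays, with the mean and 1 SD on either side. The panels span ranges of equal width, and the ratios of Birc3 to Birc2, Tnip1 to Tnip2 and Tnfaip3 to Tnip1 do not overlap between zones.

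The receptors that recruit TRAF proteins were partly below the filter. Of 15 on the list, 7 were tested, 4 were higher in the light zone, 0 were lower by limma (0 at an unadjusted p under 0.05) and 3 did not pass, with a median difference of 0.44. Cd40, the receptor for T cell help, lay between 1092 and 1189.7 in light zone arrays, against 368 to 421 in dark zone arrays. The difference was 1.53 (SE 0.06, limma adjusted p = 6.5e-09), the same to 2 decimals as that of Tnfaip3. Tnfrsf18 (0.67), the BAFF receptor gene Tnfrsf13c (0.56) and the TNF receptor 2 gene Tnfrsf1b (0.44) were the others. With no filter, or one at the 25th percentile, 1 receptor gene was lower in the light zone.

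The list of kinases that act after TRAFs was split. It also holds Ikbkg, Tab1, Tab2 and Tab3, which encode partners of these kinases and not kinases. Of 12 tested genes of the list, 5 were higher in the light zone, 2 were lower and 5 did not pass, with a median difference of -0.01. Map3k8 encodes TPL2, the kinase held by ABIN-2, and lay between 116 and 139 in light zone arrays, against 40.9 to 50.8 in dark zone arrays. Its difference was 1.43 (SE 0.08, limma adjusted p = 7.3e-08), in the same direction as Tnip2. Map3k1, a MAP kinase kinase kinase (1.29), Ikbke, the IKK-related kinase (1.17), and Ikbkb, the catalytic subunit IKK-beta (0.47), were also higher. Other probe sets of Ikbkb gave -0.36 to 0.79, and the mean of all its probe sets, the brightest included, did not pass (0.10, limma adjusted p = 0.20). Map3k14 encodes NIK, the kinase that TRAF2, TRAF3 and the cIAPs hold down, and is named here after its values were seen. It had 90.3 to 105 in light zone and 73.4 to 91.4 in dark zone arrays, which overlap. It differed by 0.31 (SE 0.08, limma adjusted p = 0.0080), and did not pass with averaged probe sets (0.14, limma adjusted p = 0.16). Map3k5, the stress kinase ASK1 (-0.37), and Tab2, which links ubiquitin chains to the kinase TAK1 (-0.18), were lower. The call of Tab2 was lost without light zone replicate 3 (limma adjusted p = 0.051) or 4 (limma adjusted p = 0.060). This left 1 gene of the list lower, and with averaged probe sets 3 were higher and 4 lower.

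Genes of enzymes that build or remove ubiquitin chains, and of partners of such enzymes, went both ways. Of 15 tested, 3 were higher in the light zone, 2 were lower and 10 did not pass, with a median of 0.04. Beside these counts, 24.8% of all tested genes were higher and 19.1% lower, and the same shares stand beside the counts of each list here. Cyld, a deubiquitinase that also restrains NF-kB, lay between 1079.5 and 1322 in light zone arrays, against 1612 to 1851 in dark zone arrays. Its difference was -0.52 (SE 0.08, limma adjusted p = 2.6e-04), opposite in sign to that of Tnfaip3, and its other probe sets gave -0.42 to 0.00. Spata2, the adaptor of CYLD, was lower too (-0.32, SE 0.07, limma adjusted p = 0.0027). Rnf31, the catalytic subunit of the linear ubiquitin ligase LUBAC, was higher (0.51, SE 0.10, limma adjusted p = 0.0011), as was the deubiquitinase gene Otud1 (0.30). Rbck1 (0.29) was the other gene higher in the light zone and encodes another LUBAC subunit, and it is named after its values were seen. Sharpin, also a LUBAC subunit gene, did not pass (0.18, limma adjusted p = 0.095), and its zones overlapped. With averaged probe sets, 6 genes of this list were higher.

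Other TRAF genes and TRAF-binding genes went both ways. Of 12 tested, 3 were higher in the light zone, 3 were lower and 6 did not pass, with a median of -0.02. Tifa encodes an adaptor that binds and activates TRAF6, and lay between 42.2 and 61.4 in light zone arrays, against 175 to 257 in dark zone arrays. Its difference of -2.10 (SE 0.14, limma adjusted p = 1.9e-07) was larger in size than that of any of the 9 measured regulators. Tank, a TRAF-binding inhibitor and TBK1 adaptor (0.75), and Traf4 (0.63) were higher. A dimmer probe set of each gave 0.17, and Tank did not pass with plain probe sets alone (0.17, limma adjusted p = 0.15). Traf3ip3 was at -0.25 (limma adjusted p = 0.018), and its call was lost without replicate 2 or 4 of the light zone or replicate 2 of the dark zone (limma adjusted p = 0.050 to 0.055).

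Genes of the other inhibitors of apoptosis and their antagonists were also mixed. Of 6 tested, 3 were higher in the light zone, 2 were lower and 1 did not pass, with a median of 0.06. Birc5 encodes survivin, which acts in mitosis, and lay between 1648 and 1831 in light zone arrays, against 2912 to 3436 in dark zone arrays. Its difference was -0.79 (SE 0.07, limma adjusted p = 2.5e-06), opposite to Birc2 and Birc3. The IAP antagonist genes Htra2 (0.44), Xaf1 (0.40) and Diablo (0.21) were higher in the light zone. The call of Diablo was lost without replicate 1, 3 or 4 of the light zone or the same numbers of the dark zone (limma adjusted p = 0.052 to 0.10). It was also lost with the replicate number as a block (limma adjusted p = 0.057) and when dim genes were tested too (limma adjusted p = 0.052). Birc6 was at -0.19 (limma adjusted p = 0.026), and 1 gene of the list was lower without replicate 1 or 4 of the light zone or replicate 2 or 4 of the dark zone (limma adjusted p = 0.060 to 0.073). With averaged probe sets Birc6 was at -0.02 (limma adjusted p = 0.83), and with a filter at the 25th percentile 5 genes of the list were higher.

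Upstream of TRAF6, 9 genes of the antigen receptor and Toll-like receptor routes were tested. Of these, 3 were higher in the light zone, 2 were lower and 4 did not pass, with a median of 0.05. Tirap, an adaptor of Toll-like receptors, lay between 267 and 308 in light zone arrays, against 529.7 to 629 in dark zone arrays. It differed by -0.98 (SE 0.07, limma adjusted p = 4.8e-07). Malt1, the protease partner of BCL10 that A20 also restrains, was at -0.43 (SE 0.07, limma adjusted p = 6.5e-04). The protein kinase C gene Prkcb (0.61) and the kinase gene Irak1 (0.50) were higher.

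At the end of the pathway, 10 of 10 tested genes of NF-kB subunits and the IkB family were higher in the light zone. Their median was 1.32, against 0.01 over all tested genes. Nfkb1, also on this list of 11 genes, had no probe set of its own and was not measured. The list was written with earlier results of these data known and is a description. Nfkbid had the largest difference among them (2.10, SE 0.12), followed by Bcl3 (1.83, SE 0.09), Relb (1.81, SE 0.09) and Nfkbia (1.51, SE 0.06). Nfkbia, which like Tnfaip3 encodes an inhibitor induced by NF-kB, lay between 5779 and 6042 in light zone arrays, against 1879 to 2226 in dark zone arrays.

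**Figure D4:**
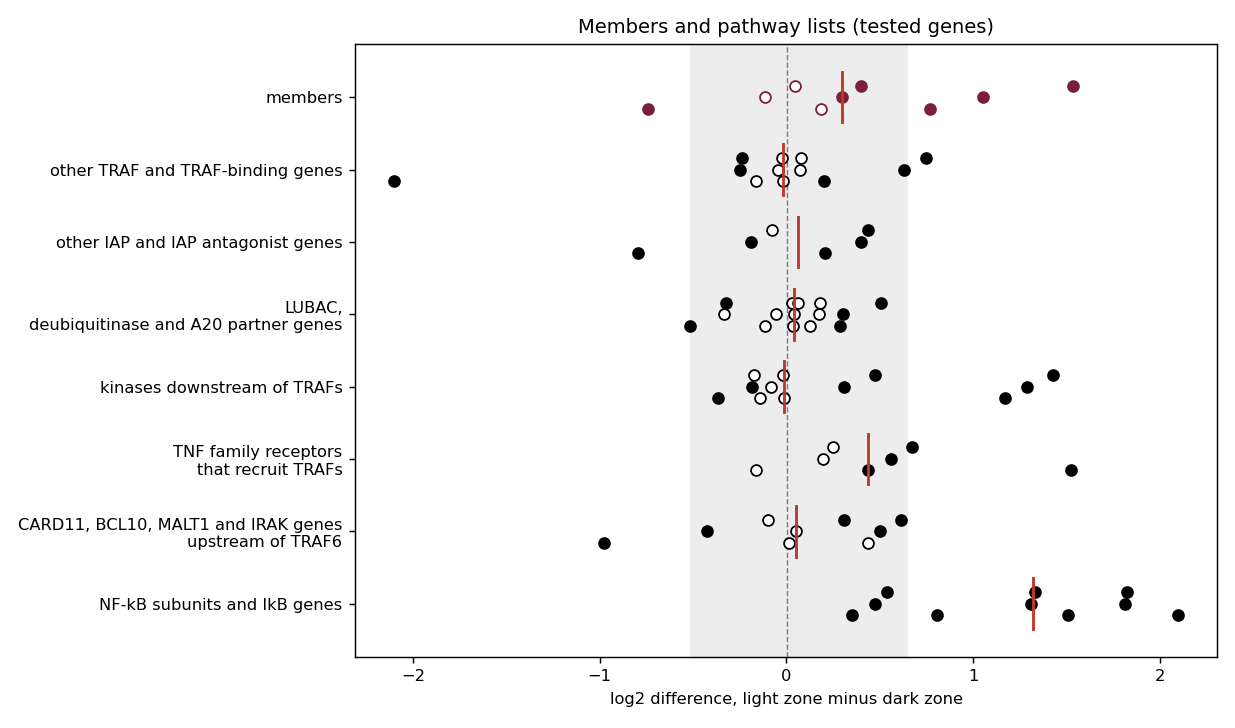
Log2 difference, light zone minus dark zone, of the 9 measured genes and of the tested genes of 7 pathway lists. Filled points passed an adjusted p of 0.05, red lines are list medians, the dashed line is the median of all 10547 tested genes (0.01), and the shaded band spans their 5th to 95th percentile (-0.51 to 0.65). Tnfaip3, Birc3 and Tnip2 lie above the band and Traf5 below it, and the list of NF-kB subunits and IkB genes has its median at 1.32.

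Myeloid marker genes also differed between zones. The 10 genes summed to 267 to 324 in light zone arrays, against 355 to 1086 in dark zone arrays, of which Lyz2 held 37.7 to 89.1 in light zone and 128 to 824 in dark zone arrays. In that list 4 genes were above the filter, of which 1 was higher and 2 were lower in the light zone. Their part in the differences of Traf5 and of the other genes lower in the light zone, such as Tifa and Tirap, was not tested. Of plasma cell markers, 5 of 6 were above the filter, 2 were higher and 1 lower in the light zone. Irf4 (2.03, limma adjusted p = 7.4e-09) and Prdm1 (1.37, limma adjusted p = 2.4e-06) were higher. Jchain was lower (-0.15, limma adjusted p = 0.049). The 6 summed to 10766 to 12083 in light zone and 11732 to 12276 in dark zone arrays. Jchain held most of this, at 7697 to 8496 in light zone and 8807 to 9308 in dark zone arrays. The part of these markers in the differences of the regulators was not tested. Of 7 genes listed for stroma and follicular dendritic cells with a probe set, 2 were above the filter. Cr1l was lower in the light zone (-0.28, limma adjusted p = 0.0084), and Cxcl13 did not pass (0.10, limma adjusted p = 0.51). The 7 summed to 892 to 1009 in light zone arrays, against 1070.1 to 1259 in dark zone arrays. Cr1l alone held most of this, at 769 to 883 in light zone and 945 to 1128 in dark zone arrays. The sums thus follow 1 gene and do not measure stroma, and the part of these genes was not tested.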

How the data were processed

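Germinal centre B cells from 4 light zone and 4 dark zone samples were profiled on Affymetrix arrays after labelling by the 3' IVT Express method named in the labels. The deposited values are intensity values on a linear scale, made by the authors with RMA (background correction, quantile normalization, probe summary), per the submitters' processing notes, whose version is not given in the sources used here. Such values hide changes in total RNA and compress folds of dim genes. The number of arrays limits the precision.

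From these, log2 was taken with no pseudocount (0 values at or below 0). Probe sets with 1 gene symbol (34945 of 45037) were named through the platform annotation. For each of 18193 genes the brightest probe set on average was taken, and 10547 genes with a mean at or above the 50th percentile were tested with limma 3.58.1 in R 4.3.3 (lmFit, eBayes, two-sided, Benjamini-Hochberg adjustment over all genes). A second fit took all 45037 probe sets. Pairs were compared by exact permutation. The fit was tested on simulated data with far fewer changed genes and independent noise, so this does not show its error rate here.

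The members and lists were chosen with earlier results of these data known. Named genes are all members, up to 4 genes of each list with the largest differences past the threshold, genes against most of their list, and the 5 genes most like the member with the largest difference. Alternatives changed the filter, the probe set taken, array weights, the scaling of arrays, the variance estimate and the arrays included, and added a block for the replicate number. Figures used matplotlib 3.10.9 in Python 3.11.15.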

Additional observations from a re-analysis of the deposited data

Results flagged for a closer look

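In 34 groups of 4 arrays (17 probe sets in 2 zones), 3 held an array far from the other 3 by Dixon's test, which chance alone does in about 1 of 20 groups. Traf2 in dark zone replicate 2 was lowest, at 7.33 on the log2 scale (intensity 161, against 177 to 179.8 in the other dark zone arrays). Birc3, in its dimmer probe set, was highest in dark zone replicate 2, at 6.55 (intensity 93.8, against 82.1 to 83.5). A Traf6 probe set below the filter was lowest in dark zone replicate 4, at 4.27 (intensity 19.3, against 22.0 to 22.3).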

How the results depend on the processing

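Counts of regulators higher (5 to 6) and lower (1) in the light zone, of their probe sets (7 to 8 and 1), of all genes (2342 to 2835 and 1706 to 2149) and of pathway genes over all lists (30 to 34 and 8 to 14) stayed within 1.5 times the reported counts under every alternative run. The differences of Tnfaip3, Tnip2, Birc3, Birc2, Traf2 and Traf5 kept their direction and their side of the threshold under 17 alternatives each. Signs turned for Traf6 without light zone replicate 4 (0.022, against -0.19 to -0.06 without any other array) and for the ratio of Traf1 to Traf2 with averaged probe sets (0.069), and neither passed there. Samples of the 2 zones share replicate numbers, but deviations of same-numbered samples from their zone means correlated at 0.13, 0.19, 0.06 and 0.24, against -0.15 to 0.09 for unlike numbers. Each light zone array correlated best with its own number, while dark zone replicate 3 correlated best with light zone replicate 1. The labels name no shared source, and pairing was taken to need over 0.1 in every pair, which number 3 did not reach. With the replicate number as a block, 2699 genes were higher and 2088 lower in the light zone, with 5 regulators higher and 1 lower. For the ratios of Birc3 to Birc2 (0.65), Tnip1 to Tnip2 (-0.72) and Tnfaip3 to Tnip1 (1.49), arrangements within a replicate number gave an adjusted exact p of 0.167, since 16 arrangements cannot reach the threshold. Probe sets near the floor, such as the second ones of Tnfaip3 and Traf5, limit what averaged values show.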
